A study of Mus musculus with 12 samples.

Results

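Twist1, Twist2, Snai1, Snai2, Prrx1, Prrx2, Msx1 and Msx2 encode transcription factors of the neural crest and the mesenchyme. They were chosen as a list of symbols in the array's annotation, each was read by a single probe set with 1 gene symbol, and they are 8 of the 19938 genes measured. Affymetrix arrays were hybridised with total RNA from 4 vessels of wild-type C57BL/6 mice, 8 weeks old and untreated: the ascending aorta, the descending aorta, the coronary artery and the superior mesenteric artery, which supplies the gut. Each vessel has 3 arrays, which the labels call biological replicates, and genotype, strain, age and the absence of treatment are the same in all 12. The study set out to find expression that follows the embryonic origin of a vessel. The labels do not say whether an array holds the tissue of 1 mouse or of several, nor whether the outer layer and the surrounding fat were removed. Values are on a log2 scale, so a difference of 1 is a 2-fold difference.

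The neural crest is a population of embryonic cells that leave the dorsal neural tube, migrate and give rise to neurons, glia, pigment cells and, in the head and heart, to connective tissue and smooth muscle. Smooth muscle of the ascending aorta comes from the cardiac neural crest and the second heart field, that of the descending aorta from somitic mesoderm, that of the coronary arteries largely from the epicardium, and that of the mesenteric arteries from visceral mesoderm. Msx1 and Msx2 are homeodomain repressors induced by bone morphogenetic proteins (BMPs) at the border of the neural plate. Snai1 and Snai2 are zinc finger repressors that switch off E-cadherin as cells leave an epithelium, the epithelial-mesenchymal transition (EMT). Twist1 and Twist2 are basic helix-loop-helix (bHLH) factors of migrating crest and of mesenchyme, and Prrx1 and Prrx2 are paired-class homeodomain factors of limb, craniofacial and vascular mesenchyme. In the adult, Twist, Snai2 and Prrx genes are used mainly by fibroblasts, fat cell precursors and other connective tissue cells.

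The stretch of 250 bases upstream of the start is shown for 4 of the genes, chosen because they stand for the patterns described in the results. Twist1 and Prrx1 had their highest mean in descending aorta, Msx2 had its highest mean in coronary artery, and Snai1 had no difference between vessels that passed a test. The RefSeq promoter table (build GRCm38.p6) holds an entry for 7 of the 8 genes; Snai2 has none there. Capitals mark 2 short motifs, searched on both strands: CANNTG, the E-box that bHLH and Snail factors bind, and TAAT with its reverse complement ATTA, the core that homeodomain factors bind. The windows are chr12:33957421-33957670 on the plus strand for Twist1, chr1:163313651-163313900 on the minus strand for Prrx1, chr13:53472781-53473030 on the minus strand for Msx2 and chr2:167537945-167538194 on the plus strand for Snai1.
Twist1: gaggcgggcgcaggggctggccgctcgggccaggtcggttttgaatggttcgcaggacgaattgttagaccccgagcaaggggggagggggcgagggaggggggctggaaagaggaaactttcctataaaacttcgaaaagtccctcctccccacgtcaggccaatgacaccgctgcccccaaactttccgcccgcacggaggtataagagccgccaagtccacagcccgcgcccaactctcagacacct
Prrx1: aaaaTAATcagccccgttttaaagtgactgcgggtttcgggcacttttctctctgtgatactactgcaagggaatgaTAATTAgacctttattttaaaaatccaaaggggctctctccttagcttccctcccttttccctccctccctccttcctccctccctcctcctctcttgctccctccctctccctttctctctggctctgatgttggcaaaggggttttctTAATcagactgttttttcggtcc
Msx2: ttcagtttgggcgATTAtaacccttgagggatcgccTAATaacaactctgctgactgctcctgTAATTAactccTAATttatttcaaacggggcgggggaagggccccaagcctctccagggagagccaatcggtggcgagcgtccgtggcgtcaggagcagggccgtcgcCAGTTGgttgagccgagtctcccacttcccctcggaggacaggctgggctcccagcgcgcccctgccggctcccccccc
Snai1: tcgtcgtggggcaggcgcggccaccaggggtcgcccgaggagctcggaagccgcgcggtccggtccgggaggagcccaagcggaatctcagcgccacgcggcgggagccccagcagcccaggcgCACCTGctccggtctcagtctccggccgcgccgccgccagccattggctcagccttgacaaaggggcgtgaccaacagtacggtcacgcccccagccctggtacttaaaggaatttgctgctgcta
The Twist1 window holds neither motif. Prrx1 has 4 TAAT or ATTA matches, overlapping ones included, and Msx2 has 5, and in each gene a pair of them overlaps as TAATTA. Msx2 also has 1 E-box. That 6-base form stands in 4.84% of the 32851 mouse windows of the same length, whereas TAAT or ATTA stands in 54.9%. Snai1 has a single E-box, CACCTG, the form bound by Snail factors; CACCTG or its reverse complement CAGGTG stands in 17.2% of all windows, and any CANNTG in 66.2%. Of the windows not shown, Msx1 also holds CACCTG and 1 TAAT or ATTA, Twist2 holds 1 TAAT or ATTA, and Prrx2 holds none of these. These matches describe the sequence; no binding was measured.

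Several arrays carried transcripts of other tissues, so they are named before the results. Ascending aorta replicate 1 had a mean over B cell and plasma cell markers of 7.78, against 4.13 and 4.09 in the other ascending arrays, and a fibroblast marker mean of 5.67 against 8.24 and 8.16. Superior mesenteric artery replicates 2 and 3 had B cell means of 6.64 and 6.41. Replicate 3 also held pancreatic acinar transcripts (list mean 9.61), replicate 1 of that vessel had the highest smooth muscle mean (9.01), and descending aorta replicate 1 had a cardiomyocyte mean of 5.57 where the other descending arrays had 4.01 and 4.08. Coronary arrays read 9.82 to 10.07 for cardiomyocyte markers and only 5.37 to 5.73 for smooth muscle markers, the lowest range of any vessel. Acta2, smooth muscle actin, ranged from 7.22 to 7.97 in coronary artery and from 8.72 to 11.60 elsewhere. In such bulk tissue, fewer cells of a type and less RNA per cell cannot be told apart.

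Across the 4 vessels, 1 of the 8 genes, Snai2, passed the moderated F test of limma (adjusted p = 0.0311), as did 4.72% of all genes. At an unadjusted p under 0.05 the count was 5 of 8, against 16.4% of all genes. All 8 genes read lower in ascending aorta replicate 1 than in both other ascending arrays, which held for 39.3% of all genes. Twist1, Prrx1 and Msx2 had the lowest of their 12 values in that array, as did 15.3% of all genes. Results that involve the spread between arrays are therefore given with and without it. Leaving it out also raised the ascending mean of each of the 8 genes by construction. Without it 4 of the 8 genes passed the F test in limma: Twist1 (adjusted p = 0.000163), Prrx1 (adjusted p = 0.0041), Snai2 (adjusted p = 0.00659) and Prrx2 (adjusted p = 0.0232). The share of all genes that passed was then 9.15%.

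**Figure D1:**
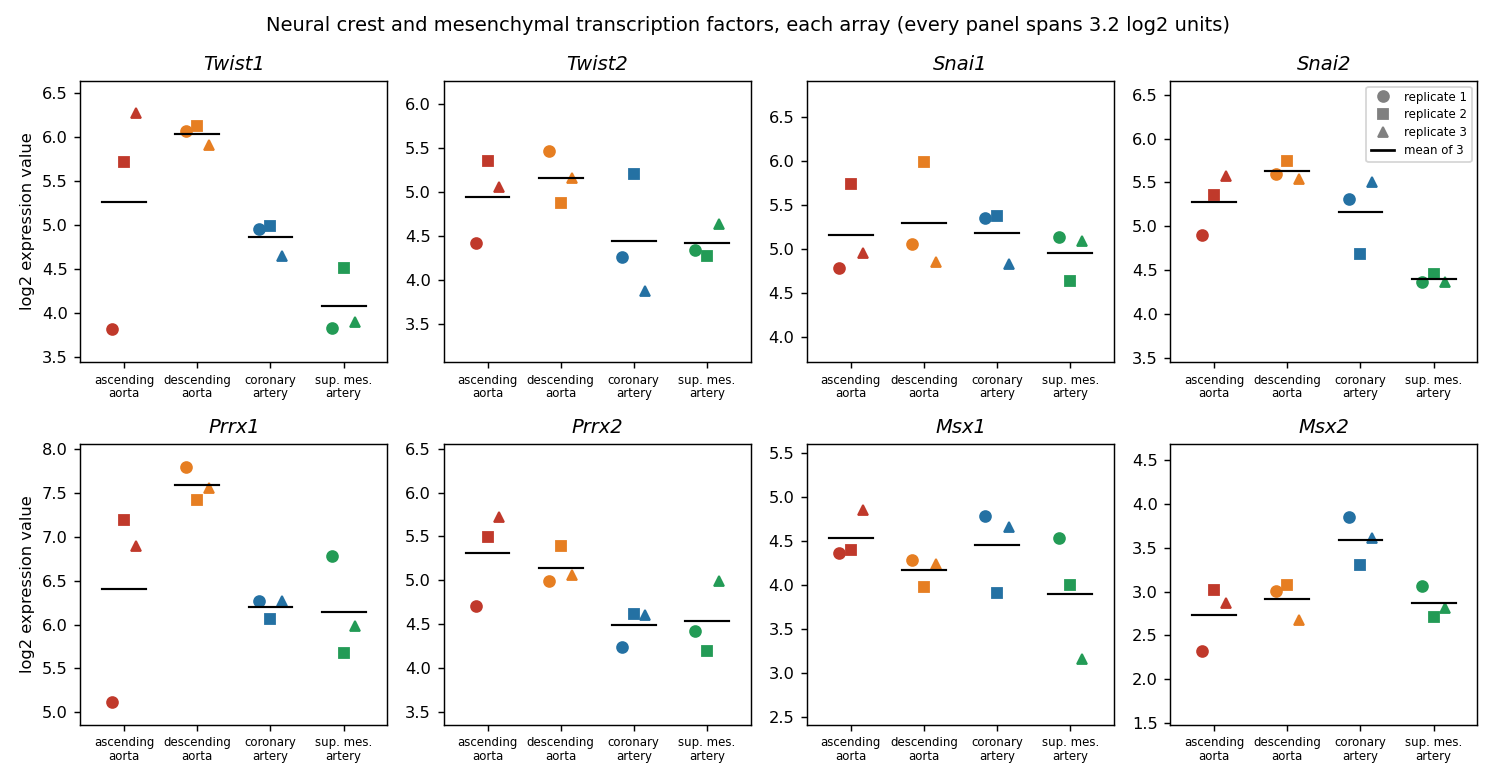
Log2 expression value of each gene in each of the 12 arrays, by vessel; symbols give the replicate number, bars the mean of 3 arrays, and every panel spans the same height. Twist1 and Prrx1 stand at 5.91 to 7.80 in descending aorta, and ascending aorta replicate 1 lies far below the other ascending arrays for both.

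Twist1 had the widest spread of vessel means of the 8 genes. It read 6.07, 6.13 and 5.91 in descending aorta, 4.95, 4.99 and 4.65 in coronary artery, and 3.82, 4.51 and 3.90 in superior mesenteric artery. The ascending arrays read 3.81, 5.72 and 6.27, so replicates 2 and 3 sat with the descending aorta and replicate 1 with the mesenteric artery. The descending, coronary and mesenteric groups did not overlap with each other, and the ascending group overlapped with all of them. The vessel means were 6.03 ± 0.113 (SD, n = 3) in descending aorta, 5.27 ± 1.29 (SD, n = 3) in ascending aorta, 4.87 ± 0.186 (SD, n = 3) in coronary artery and 4.08 ± 0.375 (SD, n = 3) in superior mesenteric artery. Twist1 was 3.88-fold higher in descending aorta than in superior mesenteric artery (log2 difference 1.96, SE 0.47, 95% interval 0.94 to 2.97; limma adjusted p = 0.0416). In that comparison 2 of the 8 genes were called higher, beside 2.84% of all genes, and none was called lower, beside 0.361%.

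The call for Twist1 rested on a narrow margin. It was lost when any single coronary, descending or mesenteric array was left out, with limma adjusted p values from 0.0572 to 0.169 and differences from 1.83 to 2.17. Without ascending aorta replicate 1 the within-vessel SD of Twist1 went from 0.681 to 0.275, and limma called more differences. Twist1 was then higher in descending aorta than in superior mesenteric artery (1.96, adjusted p = 0.00011) and coronary artery (1.17, adjusted p = 0.00599). The ascending aorta exceeded the superior mesenteric artery (1.92, adjusted p = 0.000795) and the coronary artery (1.13, adjusted p = 0.0203) as well. With 11 arrays, the shares of all genes called higher were 4.87% and 3.01% for the descending aorta against these vessels, and 2.43% and 2.03% for the ascending aorta. The array left out held the lowest ascending value of Twist1. Its removal raised the ascending differences by construction, so the ascending calls add no support. Ascending and descending aorta then differed by -0.04 (adjusted p = 0.99 in limma), whereas with all 12 arrays that difference was -0.77 (95% interval -1.78 to 0.25).

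Twist2, the close relative of Twist1 in dermis and other mesenchyme, spread more within vessels. Its values were 5.46, 4.87 and 5.16 in descending aorta, 4.42, 5.35 and 5.06 in ascending aorta, 4.26, 5.20 and 3.86 in coronary artery, and 4.34, 4.27 and 4.63 in superior mesenteric artery. The descending and mesenteric arrays did not overlap, and a single coronary array, replicate 2, read well above the other coronary arrays. The descending minus mesenteric difference was 0.75 (SE 0.33; limma adjusted p = 0.325), and no comparison passed, with or without ascending aorta replicate 1.

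No difference of Snai1 between vessels passed a test. It read 4.78 to 5.74 in ascending aorta, 4.85 to 5.99 in descending aorta, 4.83 to 5.37 in coronary artery and 4.63 to 5.14 in superior mesenteric artery, and the groups of all 6 pairs overlapped. The vessel means spanned 0.35 against a within-vessel SD of 0.449, and the limma F test gave an adjusted p of 0.9. The largest pair difference, descending minus mesenteric, had a 95% interval of -0.36 to 1.05.

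Snai2, also known as Slug, was lowest in superior mesenteric artery. There its values were 4.36, 4.45 and 4.37, below each of the other 9 arrays, a position held by 1.31% of all genes. The descending aorta read 5.60, 5.75 and 5.54, the ascending aorta 4.90, 5.36 and 5.57, and the coronary artery 5.31, 4.68 and 5.51. Descending aorta exceeded superior mesenteric artery 2.35-fold (log2 difference 1.23, SE 0.23, 95% interval 0.73 to 1.73; limma adjusted p = 0.0118), and this call was lost without descending aorta replicate 2 (adjusted p = 0.0715) or superior mesenteric artery replicate 3 (adjusted p = 0.0529). The ascending aorta (0.88, adjusted p = 0.223) and the coronary artery (0.77, adjusted p = 0.11) stood above the mesenteric artery without passing in limma. Without ascending aorta replicate 1 both passed (1.07, adjusted p = 0.0241, and 0.77, adjusted p = 0.044, by limma), and 4.19% of all genes were then called higher in coronary than in mesenteric artery. Ascending replicate 1 held the lowest ascending value of Snai2. Leaving it out raised the ascending difference by construction, so the ascending call adds no support. The coronary difference also passed in limma without coronary replicate 2 alone (1.01, adjusted p = 0.0367), beside 2.07% of all genes called in either direction. That array held the lowest coronary value of Snai2, so leaving it out raised the difference by construction and adds no support. The descending, ascending and coronary means, 5.63, 5.28 and 5.16, were not told apart by any limma contrast (adjusted p 0.448 or above). The F test call was lost when coronary replicate 1 or any 1 of the descending or mesenteric arrays was left out, with limma adjusted p from 0.0588 to 0.115.

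**Figure D2:**
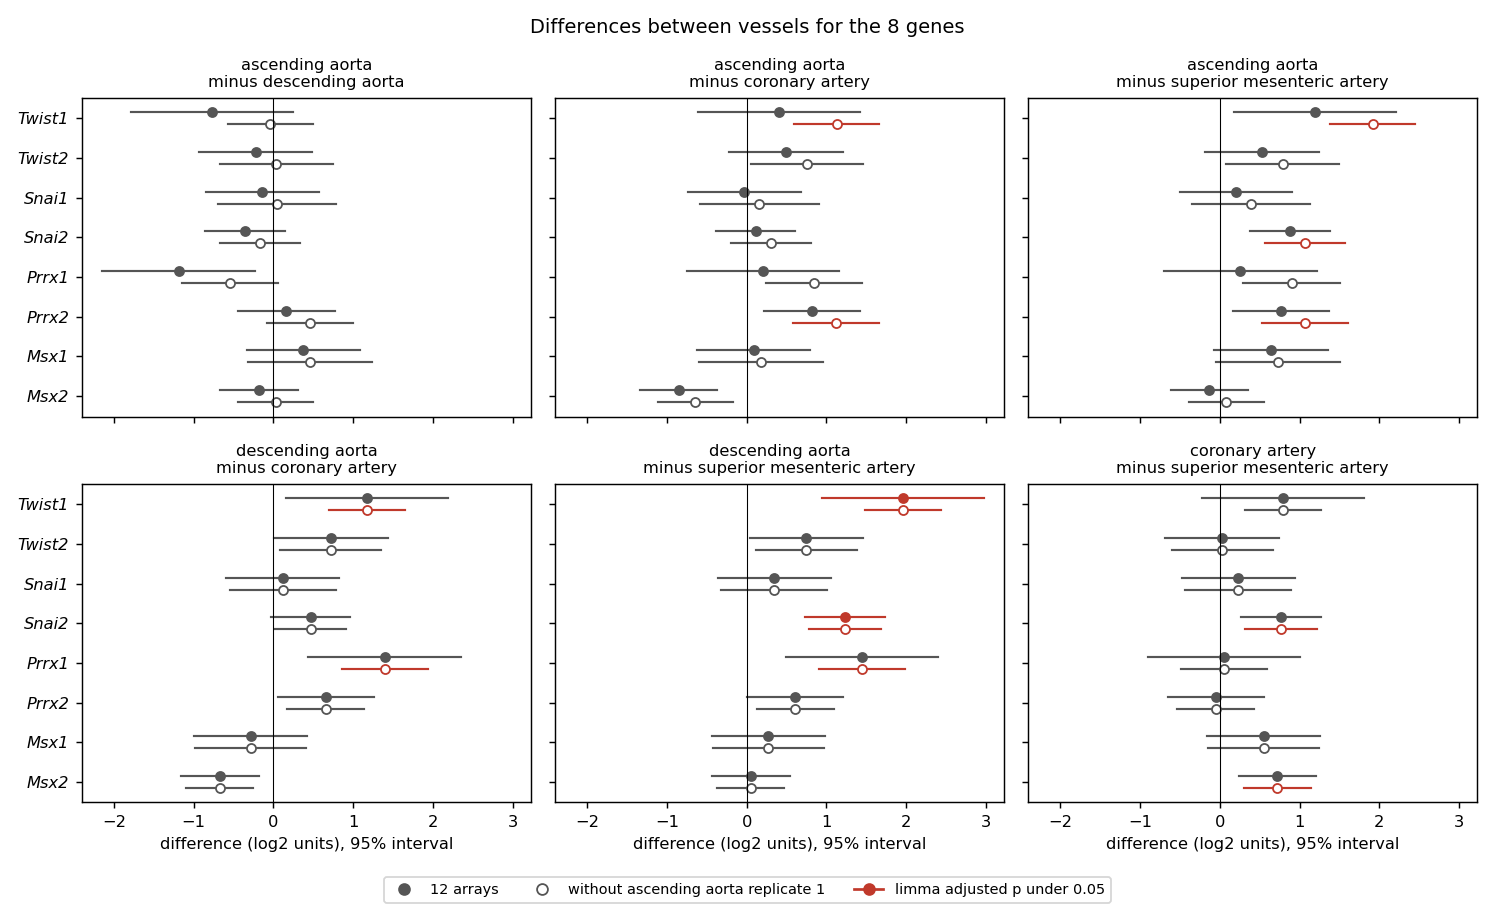
Difference between vessels in log2 units for each gene and pair, with 95% intervals from limma, for 12 arrays (filled) and without ascending aorta replicate 1 (open); red marks an adjusted p under 0.05. With 12 arrays only Twist1 and Snai2, in descending aorta against superior mesenteric artery, are red.

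Prrx1, a factor of connective tissue precursors, was read highest in descending aorta. Its values there were 7.80, 7.42 and 7.55, above all other 9 arrays, a position held by 2.52% of all genes. The ascending arrays read 5.12, 7.19 and 6.90, the coronary arrays 6.26, 6.06 and 6.27, and the mesenteric arrays 6.78, 5.68 and 5.98. Replicates 2 and 3 of ascending aorta thus lay between the descending aorta and the other vessels, and replicate 1 below everything. With 12 arrays the differences of 1.39 from coronary artery (SE 0.44, adjusted p = 0.146) and 1.45 from superior mesenteric artery (SE 0.44, adjusted p = 0.117) did not pass in limma. Without ascending aorta replicate 1 the same differences passed in limma, with adjusted p of 0.00404 and 0.00285; the within-vessel SD went from 0.638 to 0.336. Descending exceeded ascending aorta by 1.19 with that array (limma adjusted p = 0.451) and by 0.55 without it (adjusted p = 0.771).

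Prrx2, its paralog, had its highest mean in ascending aorta. The values were 4.71, 5.49 and 5.72 in ascending aorta, 4.99, 5.39 and 5.06 in descending aorta, 4.24, 4.62 and 4.61 in coronary artery, and 4.42, 4.19 and 4.99 in superior mesenteric artery. All 3 ascending arrays lay above all 3 coronary arrays, and the other ascending comparisons overlapped. The ascending minus coronary difference was 0.82 (SE 0.28, limma adjusted p = 0.178) and the ascending minus mesenteric difference 0.77 (adjusted p = 0.485). Without ascending aorta replicate 1 limma called both, at 1.12 (adjusted p = 0.023) and 1.07 (adjusted p = 0.035). That array held the lowest ascending value of Prrx2, so leaving it out raised both differences by construction and adds no support. The aortic means, 5.31 and 5.14, were not told apart by limma in either fit.

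Msx1 values overlapped between most vessels. They were 4.36, 4.40 and 4.86 in ascending aorta, 4.28, 3.98 and 4.24 in descending aorta, 4.79, 3.91 and 4.66 in coronary artery, and 4.54, 3.99 and 3.16 in superior mesenteric artery. Only the aortic segments were apart, with the 3 ascending arrays above the 3 descending ones by a mean of 0.37 (SE 0.33; limma adjusted p = 0.74), as were 6.09% of all genes. The F test adjusted p in limma was 0.586, and 0.499 without ascending aorta replicate 1.

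Msx2, which acts with Msx1 in the outflow tract and in bone, was read highest in coronary artery. The coronary values of 3.85, 3.31 and 3.61 lay above the other 9 arrays, a position held by 3.49% of all genes. The other vessels ranged from 2.32 to 3.02 (ascending aorta), 2.67 to 3.07 (descending aorta) and 2.71 to 3.07 (superior mesenteric artery). With 12 arrays coronary artery exceeded ascending aorta by 0.85 (SE 0.22, limma adjusted p = 0.0737), superior mesenteric artery by 0.72 (adjusted p = 0.125) and descending aorta by 0.67 (adjusted p = 0.177), and none passed. Without ascending aorta replicate 1 the excess over superior mesenteric artery passed in limma (0.72, adjusted p = 0.0436) and that over ascending aorta did not (0.64, adjusted p = 0.149). The coronary arrays were also those with cardiomyocyte transcripts at 9.82 to 10.07, and the part of these in the Msx2 difference was not tested. Msx2 values were low for this array: probe sets of 1027 olfactory receptor genes, which serve here as a reference for dim signals, had means with a 5th to 95th percentile range of 1.53 to 3.21.

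Compared by pairs of vessels, groups of arrays without overlap were more common than calls. No member passed in limma in the other 5 pairs, beside shares of all genes of 0.015% for ascending minus descending aorta, 0.176% for ascending minus superior mesenteric, 2.47% for ascending minus coronary, 3.14% for descending minus coronary and 3.24% for coronary minus superior mesenteric artery. At an unadjusted p under 0.05 the counts in these 5 were 1 for ascending minus descending aorta (background 9.64%), 2 for ascending minus coronary (14.8%), 3 for ascending minus superior mesenteric (7.22%), 5 for descending minus coronary (12.7%) and 2 for coronary minus superior mesenteric (14.8%). For descending minus superior mesenteric it was 5, with 13.9% of all genes. Without overlap, all descending arrays lay above all coronary arrays for Twist1, Snai2, Prrx1 and Prrx2 (12.5% of all genes) and below them for Msx2 (9.88%). They lay above all mesenteric arrays for Twist1, Twist2, Snai2 and Prrx1 (12.5%). The coronary arrays lay above the mesenteric arrays for Twist1, Snai2 and Msx2 (11.3%). The ascending arrays lay above the coronary arrays for Prrx2 (8.3%) and below them for Msx2 (11%), above the mesenteric arrays for Snai2 (4.73%), and below the descending arrays for Prrx1 (9.62%). The median difference of the 8 genes between descending aorta and superior mesenteric artery was 0.68, against -0.0080 over all genes, and all 8 means were higher in descending aorta. If ascending aorta replicate 1 is left aside, the remaining 5 aortic arrays lay above the 6 arrays of the branch arteries for Twist1 and Prrx1, as did 2.64% of all genes.

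**Figure D3:**
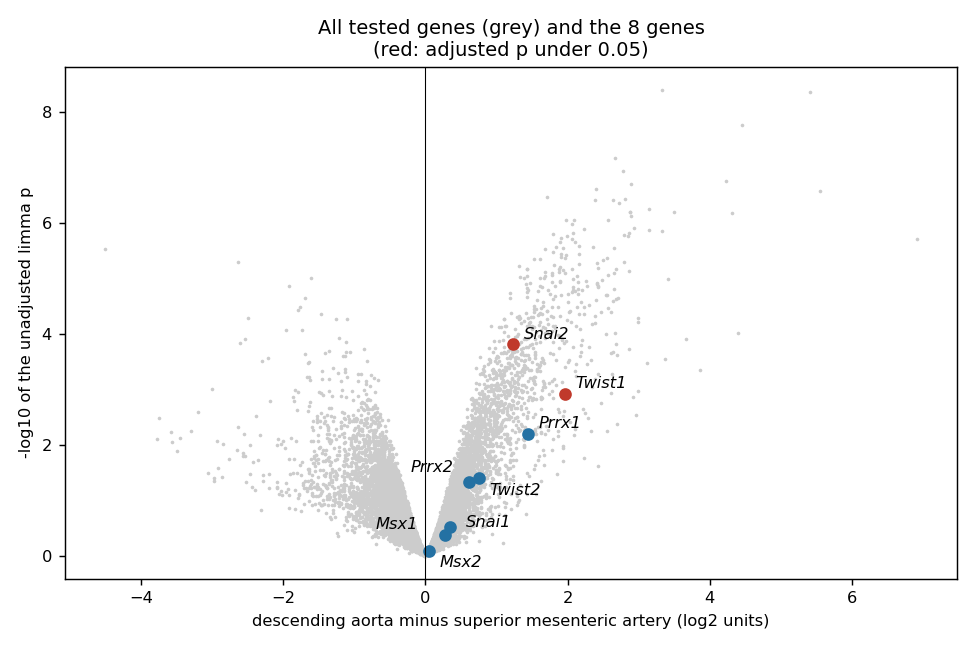
Difference between descending aorta and superior mesenteric artery (horizontal, log2 units) against the unadjusted limma p (vertical, -log10) for all 19938 genes in grey, with the 8 transcription factors coloured, red for an adjusted p under 0.05. All 8 lie right of 0, from Msx2 at 0.05 to Twist1 at 1.96, and many grey points lie above them.

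The ascending aorta, the vessel with a neural crest contribution, was also set against the mean of the other 3 vessels. None of the 8 genes passed in limma, beside 0.266% of all genes, and 1 of 8, Prrx2, had an unadjusted p under 0.05 (8.21% of all genes). Prrx2 stood 0.58 above the other vessels (95% interval 0.092 to 1.08; adjusted p = 0.518 in limma), Msx1 0.37 and Twist1 0.28 above, and Msx2 read -0.39 (adjusted p = 0.623). The median of the 8 differences was 0.24, against -0.010 over all genes. In no case did the 3 ascending arrays lie above all other 9, as 0.391% of all genes did, or below them (0.562%). Without ascending aorta replicate 1 limma called Twist1 alone (1.0, SE 0.21, adjusted p = 0.0484), beside 0.562% of all genes called higher, and Prrx2 was at 0.88 (adjusted p = 0.0893). Both differences rose by construction when that low array was left out, so the Twist1 call adds no support. In that fit ascending minus descending aorta was -0.04 for Twist1 (95% interval -0.57 to 0.50). The contrast against the mean of 3 vessels therefore did not set the ascending aorta apart from the descending aorta.

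Transcripts of fat were high in the vessel where Twist1 and Snai2 were called higher. The adipocyte list mean was 8.55 to 9.14 in descending aorta, 6.97 (replicate 1), 8.34 and 8.69 in ascending aorta, 6.31 to 6.68 in coronary artery and 6.59 to 7.13 in superior mesenteric artery. The brown adipocyte list mean was 7.71 to 8.39 in descending aorta, 6.76 to 7.66 in ascending aorta, 5.93 to 6.14 in coronary artery and 4.07 to 4.99 in superior mesenteric artery. Ucp1, the uncoupling protein that defines brown fat, read 10.60 to 11.59 in the aortic arrays and 3.05 to 6.82 in the branch arteries. Between descending aorta and superior mesenteric artery, 7 of 11 adipocyte genes (median 1.93) and 5 of 8 brown adipocyte genes (median 3.08) were called higher in descending aorta and none lower. With the adipocyte list mean as a covariate, an alternative chosen after the data were seen, the descending minus mesenteric difference became -0.30 for Twist1 (limma adjusted p = 0.934) and 0.42 for Snai2 (adjusted p = 0.824). In that fit 0.01% of all genes were called in this comparison, in either direction, against 3.2% without the covariate. Losing the call was therefore not particular to Twist1 and Snai2. The adipocyte list mean and the vessel vary together in these arrays, so the effect of fat and of vessel on these genes cannot be told apart.

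The mean over the fibroblast list was also higher in the aortic arrays other than ascending replicate 1, by a smaller margin. It was 7.93 to 8.04 in descending aorta, 5.67 (replicate 1), 8.24 and 8.16 in ascending aorta, 7.48 to 7.75 in coronary artery and 7.28 to 7.89 in superior mesenteric artery. Leaving out ascending replicate 1, the 5 aortic arrays lay above all 6 arrays of the branch arteries, as they did for Twist1 and Prrx1. The gap was narrow, from 7.93 in descending replicate 1 to 7.89 in mesenteric replicate 3. Not every marker followed the list mean. Fap did, but Dcn was highest in mesenteric replicate 1 (11.84) and Dpt in mesenteric replicate 3 (10.55). Between descending aorta and superior mesenteric artery, 1 of 17 fibroblast genes was called higher and none lower in limma (median 0.36). Between descending aorta and coronary artery, 1 was called higher and 1 lower (median 0.57). With the fibroblast list mean as a covariate, also added after the data were seen, 5 of the 8 genes passed the limma F test: Twist1, Snai2, Prrx1, Prrx2 and Msx2, beside 8.55% of all genes. Within vessels this covariate varied most in ascending aorta, through replicate 1 (SD 1.46, against 0.058 to 0.317 in the other vessels). Its slope rests largely on that array, so the fit cannot be read as a correction for fibroblast content. When the B cell and T cell means together entered the fit as a covariate, the descending minus mesenteric difference of Twist1 was 1.34 (limma adjusted p = 0.0839). The 3 arrays with the most lymphoid transcripts were ascending replicate 1 and mesenteric replicates 2 and 3. A fit without them left 1 mesenteric array, which had a smooth muscle list mean of 9.01, so its calls are not given.

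**Figure D4:**
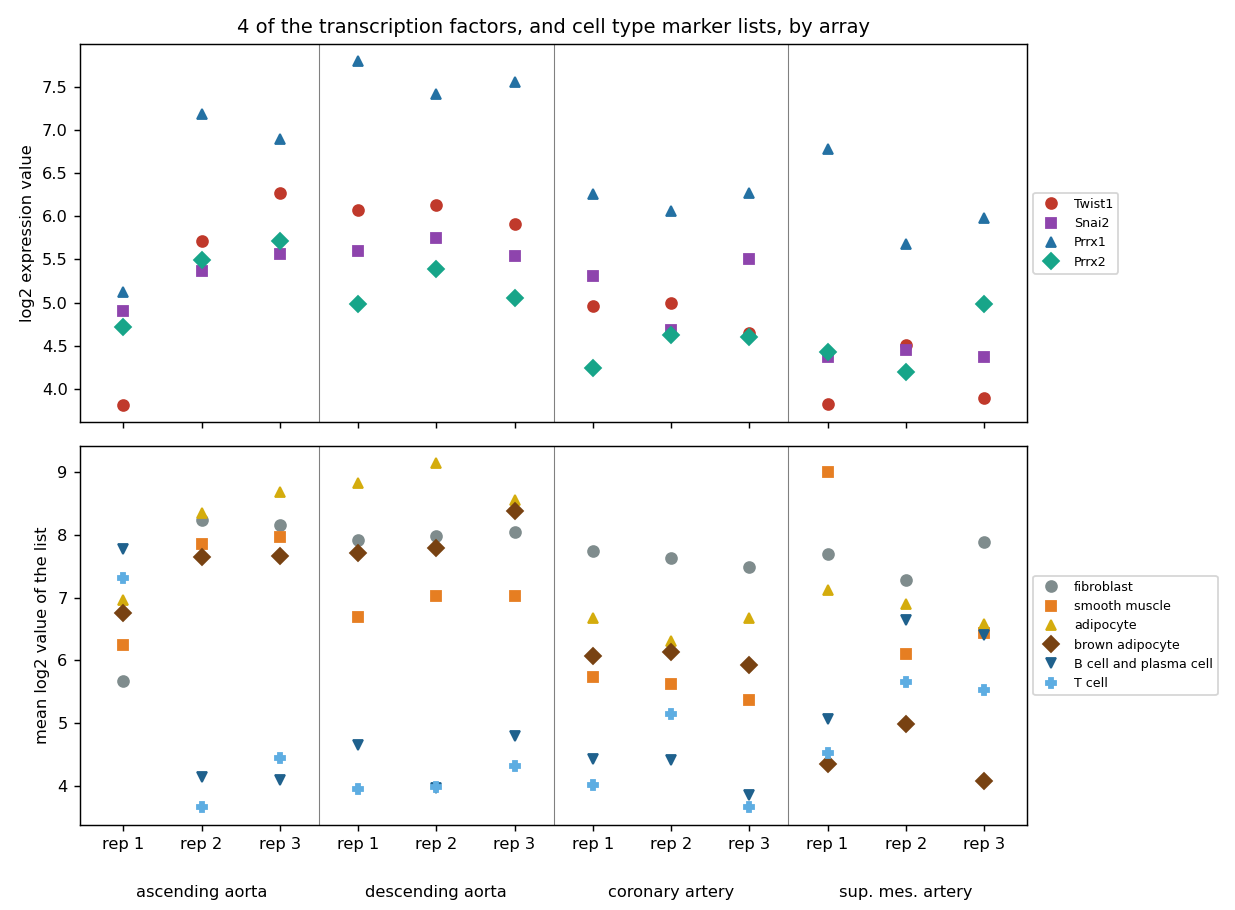
Log2 value of Twist1, Snai2, Prrx1 and Prrx2 in each array (upper panel) and the mean log2 value of marker lists for 6 cell types in the same arrays (lower panel). In the aortic arrays the adipocyte list lies at 6.97 to 9.14 and in the branch arteries at 6.31 to 7.13, and B cell markers peak in ascending aorta replicate 1 at 7.78.

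Relatives, regulators and targets of the 8 genes were read from lists of 185 genes, of which 173 were measured; 7 of the 173 passed the limma F test, against 4.72% of all genes. The count was 25 without ascending aorta replicate 1, and 3 or 4 without coronary replicate 1 or 3 or any 1 of the descending arrays. In the neural crest specifier list, which holds the factors that mark crest cells in the embryo, 0 of 16 measured genes passed the F test or any pair contrast in limma, 0 had an unadjusted F test p under 0.05, and the list median lay within 0.04 of 0 in each contrast. Sox10, the factor of crest-derived glia and pigment cells, read 3.69 to 4.36 over the 12 arrays, Foxd3 2.68 to 4.12, Pax3 2.70 to 3.36 and Tfap2a 2.04 to 2.66. All Tfap2a values and most Pax3 values lay within the dim reference range of 1.53 to 3.21. For such dim genes the absence of calls says little about differences between vessels. The Schwann cell list, with 9 of 12 genes measured, had a mean of 4.44 to 4.77 in the ascending arrays, below the 4.81 to 5.36 of the other 9, with 0 of its 9 genes past the limma F test (4 unadjusted) and 0 called in any ascending contrast. The melanocyte list had a mean of 3.36 to 3.97. Among 13 Snail relatives and EMT repressors (Zeb and Ovol genes among them), 0 passed the F test or any pair contrast in limma, and 1 had an unadjusted F test p under 0.05.

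Of the 15 bHLH partners and relatives of Twist, which include the E proteins and the Id inhibitors, 1 passed, Tcf21, a factor of epicardium-derived fibroblasts that also stands in the fibroblast and epicardial marker lists. Tcf21 was at 7.72 ± 0.241 (SD, n = 3) in coronary artery, 5.48 in superior mesenteric artery, 4.94 in ascending aorta and 4.14 in descending aorta. It was lower in descending aorta than in coronary artery by 3.58 (SE 0.44, limma adjusted p = 0.000446), opposite to Twist1, which had the higher mean in descending aorta. Of the 9 paired-class relatives of Prrx measured, 0 passed the limma F test (1 unadjusted), and Shox2 was higher in coronary than in superior mesenteric artery (1.0, limma adjusted p = 0.0492). Of 17 NK-like and distal-less relatives of Msx, 0 passed the limma F test (1 unadjusted) or a contrast.

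Of 24 mesenchymal forkhead, T-box and homeobox factors, 3 passed the F test. Foxd1, a forkhead factor of stromal precursors, was higher in descending aorta than in coronary artery (1.35, limma adjusted p = 0.0128). Foxf1, the forkhead factor of visceral mesoderm, was at 5.99 ± 1.25 (SD, n = 3) in superior mesenteric artery, above coronary artery (coronary minus mesenteric -2.40, limma adjusted p = 0.0111) and above descending aorta (descending minus mesenteric -1.86, adjusted p = 0.0463). Meox1, a homeobox factor of somites, was lower in descending aorta than in coronary artery (-1.62, limma adjusted p = 0.0279) and superior mesenteric artery (-1.63, adjusted p = 0.0272). These 3 therefore went in different directions between the vessels.

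Signals that act on Msx and Snail genes gave few calls. Of 25 BMP pathway genes, 0 passed the limma F test (3 unadjusted), and in the contrasts Grem1, a secreted BMP antagonist, was lower in descending aorta (-3.0, limma adjusted p = 0.0376) and in coronary artery (-2.84, adjusted p = 0.0479) than in superior mesenteric artery. Grem1 had an SD of 1.55 among the 3 mesenteric arrays. Of 20 genes of the fibroblast growth factor (FGF) and TGF-beta inputs, 0 passed the limma F test, while 10 had an unadjusted p under 0.05, as did 16.4% of all genes. The receptor Fgfr2 (-1.41, limma adjusted p = 0.0297) and Dusp6, a feedback phosphatase of FGF signalling (-0.98, adjusted p = 0.0202), were lower in coronary than in superior mesenteric artery.

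Genes that Snail and Twist factors repress or raise in EMT were compared first between descending aorta and superior mesenteric artery, where Twist1 and Snai2 were called. The median difference was -0.059 over 18 epithelial genes, with 1 called lower and 0 higher in limma (3 at an unadjusted p under 0.05), and 0.032 over 18 mesenchymal genes, with 0 called (4 at an unadjusted p under 0.05). Against coronary artery the mesenchymal medians were larger, 0.51 for ascending aorta and 0.45 for descending aorta, and coronary minus mesenteric was -0.48, with at most 1 gene called in each direction. The epithelial median was -0.21 for descending minus coronary artery, with 2 genes called lower, and lay between -0.12 and 0.068 in the other pairs. Cdh1, which encodes E-cadherin, read 2.51 to 3.09 over the 12 arrays, within the range of the dim reference. The epithelial gene that was lower was Krt8, a keratin also made by mesothelium (-1.63, limma adjusted p = 0.0184), which was lower in descending aorta than in coronary artery too (-1.42, adjusted p = 0.0379). Dsp, which encodes desmoplakin of the cell junctions of epithelia and heart muscle, was higher in coronary than in superior mesenteric artery (3.77, limma adjusted p = 5.99e-05). Cdh2, or N-cadherin, also a junction protein of heart muscle, was at 6.07 in coronary artery and 3.42 to 3.96 in the other vessel means, with coronary minus mesenteric at 2.65 (limma adjusted p = 0.000209). Cardiomyocyte markers stood highest in the same coronary arrays, and their part in the Dsp and Cdh2 differences was not tested. Postn, a matrix protein of fibroblasts, was higher in ascending aorta than in coronary artery (2.86, limma adjusted p = 0.0384), and Cd44, a receptor for hyaluronan, was lower in coronary than in superior mesenteric artery (-1.77, adjusted p = 0.0335).

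The genes whose levels were most like each factor over the 12 arrays, by Pearson correlation, are given as a description; the arrays share vessel, tissue makeup and the low values of ascending aorta replicate 1. For Twist1 these were Dbi, an acyl-CoA binding protein (0.972), Mcur1, a regulator of mitochondrial calcium uptake (0.961), and Poldip2 (0.951). For Snai2 they were Cpt2 (0.965) and Ucp3 (0.965), which serve fatty acid oxidation and the mitochondrial membrane, and Idh3a of the citric acid cycle (0.956). Idh3a, for example, read 8.22 to 8.62 in descending aorta and 5.43 to 5.58 in superior mesenteric artery. Prrx1 was most like Mgll, the monoacylglycerol lipase (0.943), Ak3 (0.938) and Tspan12 (0.935). Prrx2 was nearest to Frs3 (0.912), Gss (0.891) and Sntb1 (0.890). Msx2 was nearest to Cfl2, a cofilin of muscle (0.916), the potassium channel subunit Kcne1 (0.911) and the small heat shock protein Cryab (0.910), and Cryab read 10.25 to 10.31 in the coronary arrays and 5.64 to 9.07 elsewhere. The leading values were 0.961 for Twist2 (Tceal6), 0.883 for Snai1 (Pafah1b1) and 0.891 for Msx1 (Pcdhb11). Next came Tubb2b and Defb39 for Twist2, Dynap and Opalin for Snai1, and Gmds and Hbegf for Msx1, at 0.868 to 0.941. Defb39, Opalin and Pcdhb11 read 2.01 to 2.99 over the arrays, within the range of the dim reference, which limits what their likeness shows.

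The order of vessels differed among the 8 genes. From high to low, the order of means over 12 arrays was descending aorta, ascending aorta, coronary artery, superior mesenteric artery for Twist1, Twist2, Snai2 and Prrx1. If ascending replicate 1 is left out, ascending minus descending aorta was -0.04 for Twist1 and 0.04 for Twist2. Prrx2 had ascending before descending aorta, with coronary artery lowest, Snai1 had its means within 0.35, Msx1 had ascending aorta and coronary artery before descending aorta, and Msx2 had coronary artery first. Neighbours in these orders overlapped or did not pass in limma with 12 arrays, so only the ends of the Twist1 and Snai2 orders were told apart.

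**Figure D5:**
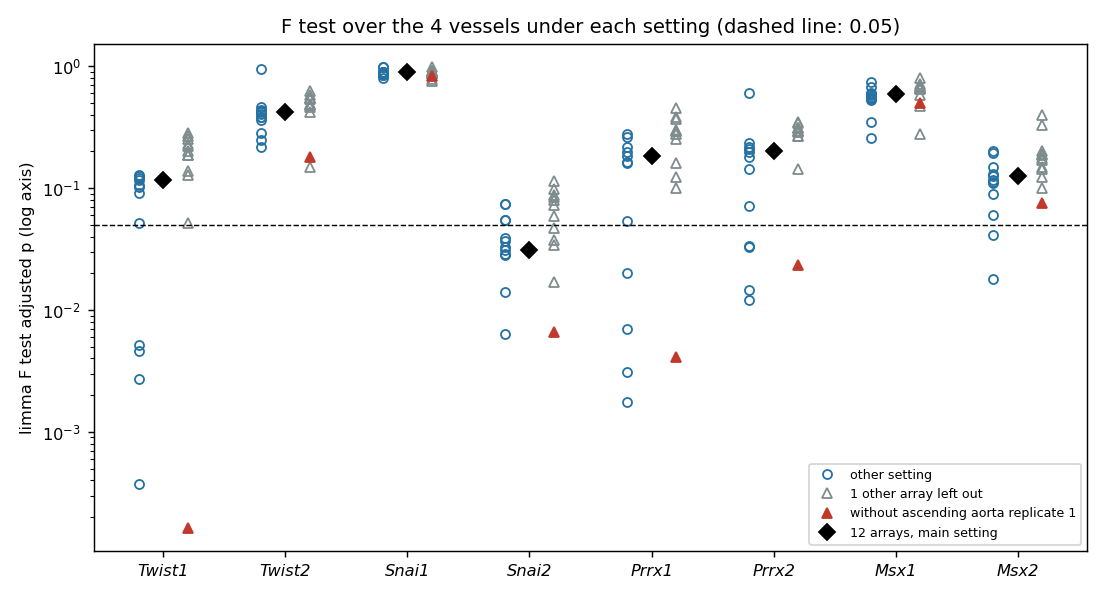
Adjusted p of the limma F test over the 4 vessels (log axis, dashed line at 0.05) for each gene under the main setting (diamond), under other settings (circles) and with 1 array left out (triangles; red for ascending aorta replicate 1). Twist1, Prrx1 and Prrx2 cross the line in 5 settings each and Msx2 in 2, Snai2 lies on both sides of it, and Twist2, Snai1 and Msx1 stay above it.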

How the data were processed

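RNA of 12 vessel samples was measured on Affymetrix arrays. The authors deposited log2 values of 35556 probe sets; the submitters' processing notes name RMA, which corrects background, normalizes and summarises probes, and Partek 6.6, without order. Per the labels' protocols, RNA was extracted with Trizol and labelled from 6 ug. Array medians were 4.04 to 4.18. Depth does not apply to arrays; 3 per vessel limit the precision.

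Of the probe sets, 21789 had 1 gene symbol, 1621 several and 12146 none. Those with several symbols or none were left out. The probe set with the highest mean was kept for 999 genes with more than 1, none of them among the 8, which gave 19938 genes. All 8 matched the RefSeq gene table by gene identifier.

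limma 3.58.1 in R 4.3.3 (with the data.table package, version 1.17.8) fitted 1 mean per vessel to all 12 arrays (8 residual degrees of freedom), with an F test, the 6 pair contrasts and ascending aorta against the mean of the others, two-sided. Benjamini-Hochberg adjustment ran over all genes within a comparison, threshold 0.05. The fit was tested on simulated data. Figures used Python 3.11.15 and matplotlib 3.10.9. The members and lists were chosen with earlier results of these data known. Named genes are the 8, at most 4 called genes per list, the 3 genes most like each member and defining markers. Same-numbered arrays did not deviate together (18 pairs, 0 with a correlation over 0.1), so numbers were not used as pairs. Alternatives were a second normalization, median centring, filters, probe set averaging, array weights, variance models, covariates and left-out arrays.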

Additional observations from a re-analysis of the deposited data

How the results depend on the processing

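Leaving out 1 array at a time moved the number of the 8 genes past the F test (1 with all arrays) between 0 and 4, and the calls for ascending minus coronary artery (0) between 0 and 2, ascending minus superior mesenteric artery (0) between 0 and 3, descending minus coronary artery (0) between 0 and 2, descending minus superior mesenteric artery (2) between 0 and 3, coronary minus superior mesenteric artery (0) between 0 and 2, ascending aorta minus the mean of the others (0) between 0 and 1, and relatives and pathway genes in the F test (7) between 3 and 25. With 1 array left out, the share of all genes past the F test ran from 2.76% to 9.15%. For ascending minus coronary, ascending minus mesenteric and descending minus coronary artery shares ran from 1.26% to 3.85%, 0.0301% to 3.15% and 1.63% to 5.3%. For descending minus mesenteric, coronary minus mesenteric and ascending minus the others shares ran from 1.09% to 6.83%, 1.57% to 6.48% and 0.0903% to 0.833%. The movement was therefore not particular to the 8 genes. Ascending minus descending aorta gave 0 calls under every alternative run. In the order of the counts above, without ascending minus descending aorta, array weights gave 4, 1, 2, 2, 3, 1, 0 and 18 calls. The shares of all genes called in the contrasts were then 4.45%, 2.22%, 5.49%, 6.8%, 5.66% and 0.833%. The lymphoid covariate gave 2, 1, 0, 2, 1, 0, 0 and 20, with contrast shares of 4.32%, 1.2%, 5.11%, 2.5%, 3.98% and 0.823%. The fibroblast covariate gave 5, 2, 2, 2, 3, 2, 0 and 23, and the adipocyte covariate 1, 1, 0, 1, 0, 3, 0 and 16. Contrast shares were 5.13%, 1.9%, 4.64%, 4.69%, 6.38% and 0.777% with the fibroblast covariate. With the adipocyte covariate they were 9.2%, 0.923%, 3.32%, 0.01%, 7.82% and 3.62%. Without ascending replicate 1, descending replicate 1 and mesenteric replicate 3 together the counts were 2, 2, 2, 2, 2, 0, 0 and 16. The contrast shares in that fit were 3.34%, 1.66%, 3.63%, 3.81%, 3.54% and 0.612%. Without ascending replicate 1 and mesenteric replicates 2 and 3 they were 3, 3, 1, 2, 2, 1, 2 and 41. The share of all genes past the F test moved as well, from 4.72% to 9.12% with array weights. It was 6.59%, 8.55% and 7.61% with the lymphoid, fibroblast and adipocyte covariates. Without ascending replicate 1, descending replicate 1 and mesenteric replicate 3 together it was 5.86%. At a threshold of 0.01 the F test gave 0 members and 3 relatives, and descending minus superior mesenteric artery 0. Fitting only the 6 arrays of a pair gave 2 calls for descending minus coronary artery and 3 for descending minus superior mesenteric artery. No share of all genes stands beside the counts at 0.01 or in the pair fits, so these have no background. With the replicate block, which the data do not bear out as pairs, the F test gave 0 members (Snai2 adjusted p = 0.0548 in limma). The adipocyte covariate turned the descending minus mesenteric difference of Twist1 to -0.30. None of these counts changed with a further quantile normalization, with arrays centred on their medians, with the dimmest 25% of genes removed, with averaged probe sets, or with an intensity trend and robust variance. The covariates for fibroblast and adipocyte lists and the removal of the 3 lymphoid arrays were chosen after seeing the data. The causes were not tested. Msx2 lies near the dim end of the array, which limits what its differences can show.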
